A study of Mus musculus with 24 samples.

Results

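The nuclear genes of the mitochondrial ribosome were examined in B lymphomas of mice. The members were chosen by symbol: every row of the deposited count table whose symbol begins with Mrpl or Mrps followed by a digit, which gave 76 of 11140 genes, 47 with an Mrpl and 29 with an Mrps symbol. Each library holds RNA of B lymphoma cells purified from spleens of C57BL/6 mice. The T cell deficient lymphomas (11 libraries) had the genotype Bcl6Tg/+CD3Epsilon-/-, and the T cell sufficient lymphomas (12 libraries) had the genotype Bcl6Tg/+, so both groups carried the Bcl6 transgene and differed in the label by loss of CD3 epsilon, a chain of the T cell receptor complex. The labels give neither the promoter of the transgene nor the age of the animals. Libraries were sequenced in 2 runs, which the labels call batches: run 2 held 6 T cell deficient and 5 T cell sufficient lymphomas, and run 1 held 5 and 7. The repeat library of T cell sufficient lymphoma 1 has no count column of its own and was not analysed as a separate library. The series compared lymphomas that arose without and with T cells.

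Mitochondria make the few proteins encoded in their own DNA, all of them subunits of the respiratory chain and ATP synthase, on a ribosome of their own. Its ribosomal RNAs come from mitochondrial DNA, while every one of its proteins is encoded in the nucleus, made in the cytosol and imported. It has a small subunit that reads the messenger RNA and a large subunit that forms the peptide bond and feeds the new chain into the inner membrane. Part of the proteins descend from bacterial ribosomal proteins and part are found only in mitochondria. Lymphocytes that grow and divide raise mitochondrial mass and translation, and the genes of the organelle's ribosome are described in other cells as targets of the transcription factors NRF1 and GABP and of Myc.

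Of the 76 genes, 49 encode proteins of the large subunit and 26 of the small subunit. By their current names Mrps18a (mL66) and Mrps30 (mL65) lie in the large subunit in spite of their symbols. Mrps36 lies in neither and is now called Kgd4, a component of the oxoglutarate dehydrogenase complex. Counting by ancestry, 45 members were classed as having a bacterial counterpart and 31 as having none. The 31 include Mrps36. They also include Mrps18a and Mrps18b, which are paralogues of the bacterial S18. Mrpl58, a release factor built into the large subunit, stands in the table under its older symbol Ict1 and was therefore no member. Its mean level was 27.6 CPM in T cell deficient and 30.4 CPM in T cell sufficient lymphomas, and the difference did not pass the test (edgeR adjusted p = 0.780). Mrpl23 was not analysed here. All 76 members passed the filter on low counts, as did 11020 of the 11140 genes. They lie on 17 chromosomes, with 10 members on chromosome 11 and 8 on chromosome 17.

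Library totals, in units of 1000000 counts, ran from 11.8 to 28.1 in T cell deficient and from 7.58 to 30.6 in T cell sufficient libraries, so that 3 counts, the limit set by a count of 0, equalled 0.107 to 0.255 CPM in T cell deficient and 0.0980 to 0.396 CPM in T cell sufficient libraries. All 10 B cell markers had a row, and their summed level was 4244 to 9991 CPM in T cell deficient and 5958 to 13000 CPM in T cell sufficient libraries. Cd3e, the targeted gene, was low in both groups, with 0.721 to 5.77 CPM in T cell deficient and 0 to 2.46 CPM in T cell sufficient lymphomas. Counts cover the whole gene and B cells do not normally transcribe it, so Cd3e does not check the genotype labels here. In 3 T cell sufficient libraries of run 2 (replicates 9, 10 and 11) Xist and Y-linked transcripts both exceeded 20 CPM, and results are also given without them where they change. The labels do not say in words that each library came from its own animal, and p-values measure the spread between these libraries.

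Mitoribosomal transcripts were moderately abundant in every library. Mean levels of the 76 members ran from 5.95 to 151 CPM with a median of 48.8 CPM, where CPM are library-scaled counts (counts per 1000000) with TMM factors, edgeR's trimmed mean of M-values. Together the members summed to 2530 to 5612 CPM in T cell deficient lymphomas and 2799 to 5311 CPM in T cell sufficient lymphomas. The means were 3874 ± 926 CPM and 3965 ± 818 CPM (SD, n = 11 and 12), and the groups overlapped over nearly their whole range. Within run 2 the summed level was 3157 ± 358 CPM in T cell deficient (n = 6) and 3113 ± 259 CPM in T cell sufficient lymphomas (n = 5). Within run 1 it was 4735 ± 536 CPM in T cell deficient (n = 5) and 4574 ± 379 CPM in T cell sufficient lymphomas (n = 7). In both runs the difference between group means was smaller than the spread within a group. In bulk samples like these, fewer cells of a type and less RNA per cell cannot be told apart.

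**Figure D1:**
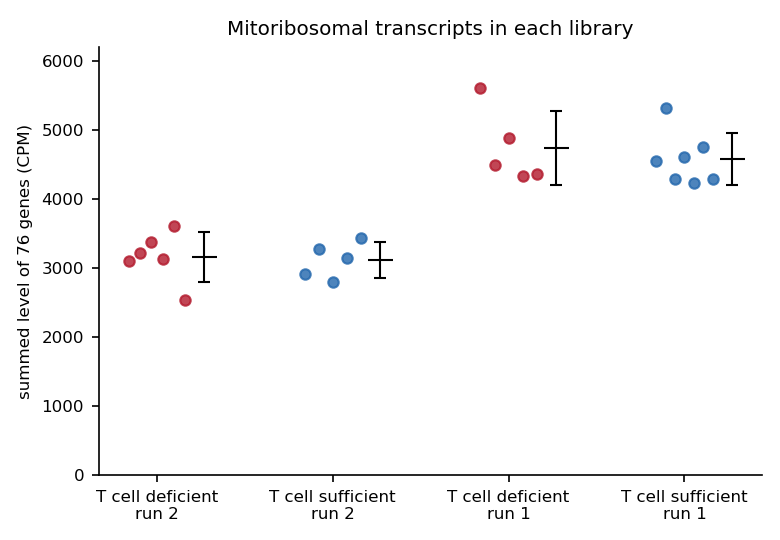
Summed level of the 76 mitoribosomal genes in CPM (vertical axis), with 1 point a library, for T cell deficient (red) and T cell sufficient (blue) lymphomas of each run; black bars give the mean and SD. Libraries of run 2 sit between 2530 and 3602 CPM and those of run 1 between 4230 and 5612 CPM, while the groups overlap within each run.

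Summed by subunit, the groups differed by less than their spread. Large subunit members summed to 2762 ± 644 CPM in T cell deficient and 2801 ± 597 CPM in T cell sufficient lymphomas. For the small subunit the sums were 1107 ± 286 CPM and 1158 ± 227 CPM in the same order. Within run 2 the large subunit summed to 2256 ± 254 CPM in T cell deficient and 2179 ± 193 CPM in T cell sufficient lymphomas, while the small subunit summed to 896 ± 109 CPM and 929 ± 67.6 CPM, so the means of the subunits differed in opposite directions. Within run 1 both were higher in T cell deficient lymphomas, at 3369 ± 337 against 3245 ± 276 CPM for the large and 1359 ± 207 against 1322 ± 129 CPM for the small subunit. The ratio of large to small was 2.51 ± 0.13 in T cell deficient and 2.41 ± 0.15 in T cell sufficient lymphomas (SD, n = 11 and 12), and the ranges, 2.32 to 2.69 and 2.16 to 2.67, overlapped. In run 2 the ratio was 2.52 ± 0.107 in T cell deficient and 2.34 ± 0.0731 in T cell sufficient lymphomas, and the ranges, 2.408 to 2.668 and 2.245 to 2.416, overlapped only at their ends. In run 1 it was 2.49 ± 0.165 in T cell deficient and 2.46 ± 0.179 in T cell sufficient lymphomas, with broad overlap. The ratio was not tested, since it is a score over the members, and it follows the number of members in each subunit and is no measure of subunit stoichiometry.

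Per kilobase of transcript the members spread over a range from 5.49 to 151 CPM per kilobase, with a median of 33.1. Large subunit members with the highest level per kilobase were Mrpl52 (151), Mrpl12 (95.2), the L7/L12 stalk protein that also binds the mitochondrial RNA polymerase, and Mrpl33 (91.9). Among small subunit members Mrps21 (105), Mrps7 (76.8), a protein of the head of the subunit, and Mrps15 (58.7) led. At the low end stood Mrpl48 (5.61), Mrpl47 (6.40) and Mrpl35 (10.7) in the large subunit and Mrps25 (5.49), Mrps33 (5.77) and Mrps5 (7.75) in the small subunit. Lengths are those of 1 GENCODE transcript per gene, and apart from Mrps33 the low members have models of 3364 to 6073 bases, so their values depend on which transcript the lymphoma cells use. Mrps33 is low in CPM as well, with 5.36 ± 2.35 CPM in T cell deficient and 7.33 ± 4.02 CPM in T cell sufficient lymphomas.

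Members with well described roles lay between these ends. Mrpl2, which lines the peptidyl transferase centre, had 54.3 CPM per kilobase in T cell deficient and 50.1 in T cell sufficient lymphomas. Mrps12, homologue of the bacterial decoding centre protein S12, had 47.1 and 53.4 CPM per kilobase in the same order. Mrpl3, whose human gene is mutated in a cardiomyopathy, had 24.7 and 26.0, and Mrpl11, at the base of the stalk, had 14.6 and 16.0. None of these 4 genes passed the test for group. Mrpl44, which has a fold related to RNase III and is mutated in human cardiomyopathy, had 48.1 CPM per kilobase in T cell deficient and 45.5 in T cell sufficient lymphomas. Mrpl45, which holds the ribosome near the inner membrane, had 44.1 and 39.3, and Mrps34, mutated in human Leigh syndrome, had 45.9 ± 11.5 CPM and 50.7 ± 9.93 CPM. Mrpl32, which a protease of the inner membrane cuts before it enters the ribosome in yeast and mouse, had 12.6 and 13.2 CPM per kilobase. The group difference of each of these genes missed the threshold too, which does not show that the levels are equal. The 3 paralogues of the bacterial S18 had 51.4 (Mrps18a), 34.3 (Mrps18b) and 51.6 CPM per kilobase (Mrps18c) in T cell deficient lymphomas. In T cell sufficient lymphomas they had 45.9, 32.8 and 47.5. Mrps36 had 7.87 CPM per kilobase in T cell deficient and 9.05 in T cell sufficient lymphomas, and Mrps30 had 23.0 and 22.1.

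**Figure D2:**
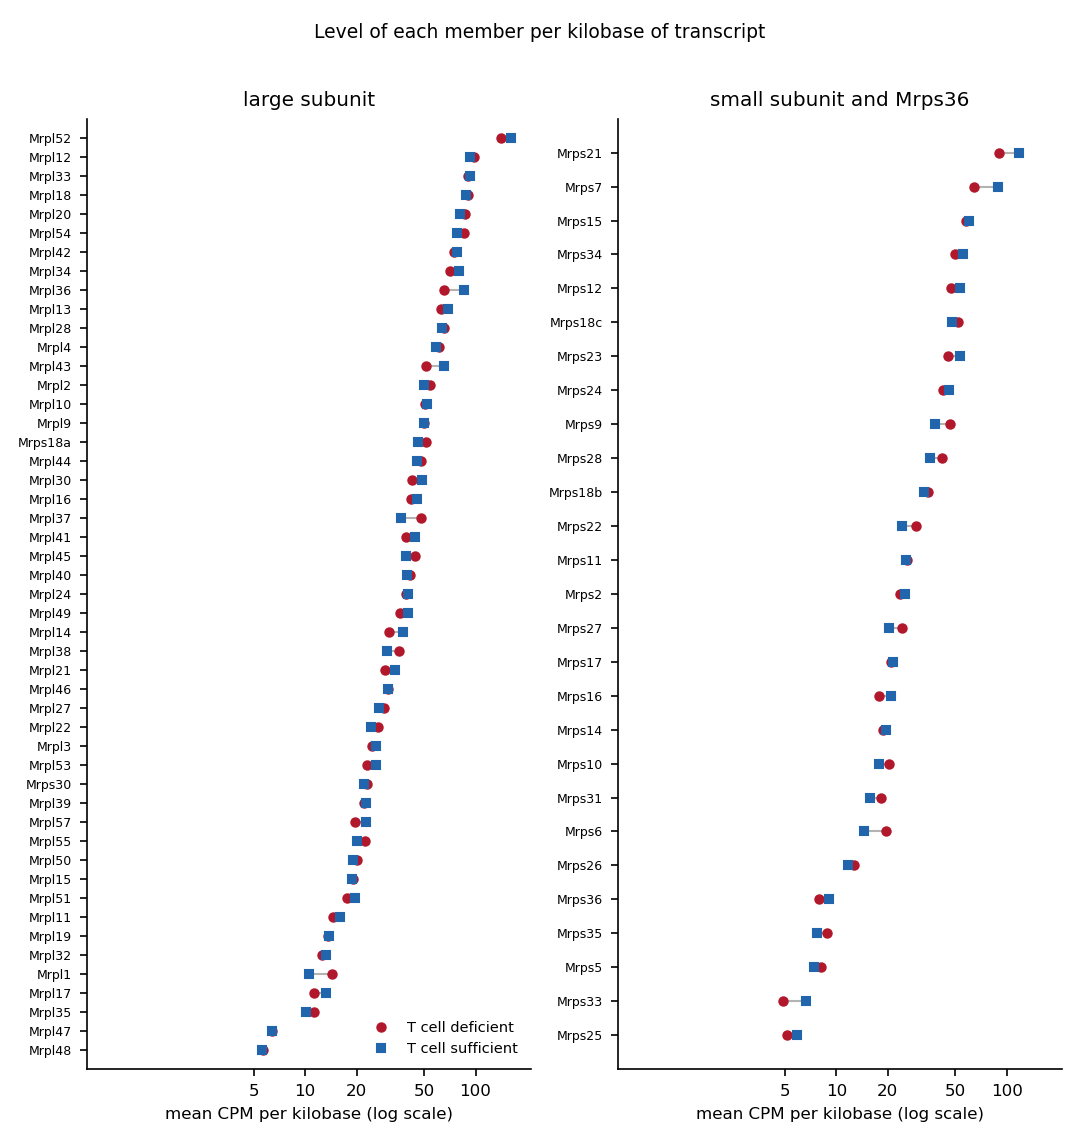
Mean level of each member in CPM per kilobase of transcript (horizontal, log scale) in T cell deficient (red circles) and T cell sufficient lymphomas (blue squares), ordered by level within each subunit. Mrpl52 is highest at 151 and Mrps25 lowest at 5.49 over all libraries, and in most genes the symbols lie close together.

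The members differed in how tightly they were held. With the runs pooled, the SD of log2 CPM within groups had a median of 0.383 over the members. It was smallest for Mrps9, Mrpl24 and Mrps15, between 0.218 and 0.240, and largest for Mrpl33, Mrps28 and Mrps33, between 0.622 and 0.724. When computed within groups and runs the median SD was 0.246, with a range of 0.127 to 0.426. Much of the spread within a group therefore lay between the runs. The order of members changed too: within groups and runs Mrps9 had an SD of 0.206 and Mrps33 of 0.376. Mrps23 was tighter, at 0.133, and Mrps7 wider, at 0.426.

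Between the groups, 7 members rose in T cell deficient lymphomas and none fell (quasi-likelihood test of edgeR, run as a covariate, Benjamini-Hochberg adjusted p under 0.05). Over all 11020 genes tested, 10.6% were called higher and 11.7% lower, or 22.2% in either direction, so the share of members called higher was near the background. The median log2 fold change, T cell deficient over sufficient, was 0.06 over the members and -0.01 over all genes, and 45 members had a positive and 31 a negative value. At an unadjusted p under 0.05, 16 members were higher and 4 lower, where 1957 of the 11020 genes were higher and 2016 lower. DESeq2 called 10 members higher and 3 lower, against backgrounds of 13.7% and 14.4%, and limma-voom called 5 higher and none lower, against 11.2% and 11.7%. In the authors' deposited table, 4 of the 76 were higher and none lower at an adjusted p under 0.05, where 22.8% of genes were called in either direction: Mrpl1, Mrpl37, Mrps9 and Mrps31. By subunit, 4 of 49 large and 3 of 26 small subunit members were called. By ancestry, 3 of 45 classed with and 4 of 31 classed without a bacterial counterpart were called.

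Mrpl1 (uL1m), which forms the mobile stalk beside the exit site for transfer RNA, had the smallest p (GRCm38 chr5:96209493-96266727, plus strand). It had 38.3, 49.6 and 64.2 CPM (lowest, median, highest) in T cell deficient lymphomas, against 21.1, 34.8 and 53.2 CPM in T cell sufficient lymphomas. All 11 T cell deficient libraries lay above the median of the T cell sufficient ones, though the ranges overlapped. The log2 fold change was 0.51 (SE 0.121), or 1.43-fold, with an edgeR adjusted p of 0.00532. Within run 2 the medians were 44.5 CPM in T cell deficient and 27.4 CPM in T cell sufficient lymphomas (exact permutation test of mean log2 CPM, two-sided, p = 0.00866). In run 1 they were 52.2 and 36.0 CPM in the same order (exact permutation p = 0.0227). The difference had the same direction in both runs. Only members called over both runs were tested within runs, on the same libraries. Their permutation p-values are therefore no separate support, and they were not adjusted for the number of tests.

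Mrpl37 (mL37), a large subunit protein with no bacterial counterpart (chr4:107055874-107066868, minus strand), had 56.3, 67.1 and 112 CPM in T cell deficient lymphomas, against 27.1, 54.7 and 82.7 CPM in T cell sufficient lymphomas. Again all 11 T cell deficient libraries exceeded the median of the others. The log2 fold change was 0.48 (SE 0.126), with an edgeR adjusted p of 0.00955. In run 2 the ranges did not overlap: T cell deficient libraries had 56.3 to 78.5 CPM and T cell sufficient ones 27.1 to 52.9 CPM (exact permutation p = 0.0022, the smallest that 462 splits allow). Mrpl37 was the only member whose T cell deficient libraries all lay above in run 2, where this held for 4.28% of all genes. In run 1 the ranges, 65.0 to 112 and 54.7 to 82.7 CPM, overlapped (exact permutation p = 0.0379).

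Mrps9 (uS9m, chr1:42851233-42905683, plus strand) is the homologue of a bacterial protein whose tail reaches the transfer RNA in the peptidyl site. Its levels were 55.6, 65.2 and 81.4 CPM in T cell deficient lymphomas, against 37.8, 53.9 and 72.2 CPM in T cell sufficient lymphomas. All 11 T cell deficient libraries lay above the median of the T cell sufficient ones. The log2 fold change was 0.33 (SE 0.0895, edgeR adjusted p = 0.0133), and within runs the exact permutation p was 0.0065 in run 2 and 0.0758 in run 1. With the runs pooled, Mrps9 was also the member with the smallest SD of log2 CPM within groups. Within groups and runs its SD was 0.206, and Mrps23, for one, had a smaller SD of 0.133.

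The other 4 calls lay close to the threshold. Mrps22 (mS22), mutated in a human mitochondrial disease, had 20.3, 33.7 and 51.0 CPM in T cell deficient lymphomas, against 18.2, 27.5 and 38.3 CPM in the T cell sufficient ones (log2 fold change 0.34, SE 0.113, edgeR adjusted p = 0.0348). Mrps31 (mS31) had 21.3, 27.5 and 35.2 CPM in T cell deficient lymphomas, against 16.5, 22.5 and 30.4 CPM in T cell sufficient lymphomas (0.26, SE 0.0894, adjusted p = 0.0379). For each, 10 of the 11 T cell deficient libraries exceeded the median of the T cell sufficient ones, and the ranges overlapped. Mrpl38 (mL38), of the central protuberance, had 27.1, 51.9 and 73.5 CPM in T cell deficient lymphomas, against 31.1, 44.5 and 53.1 CPM in T cell sufficient lymphomas (0.27, SE 0.0932, adjusted p = 0.0424). Mrpl55 (bL31m) had 14.7, 19.3 and 29.9 CPM in T cell deficient lymphomas, against 12.5, 19.3 and 26.7 CPM in T cell sufficient lymphomas (0.24, SE 0.0828, adjusted p = 0.0434). The overall medians of Mrpl55 were alike, and its difference is seen within runs: 16.7 CPM in T cell deficient against 13.8 CPM in T cell sufficient lymphomas of run 2, and 26.0 against 23.4 CPM in run 1. Within run 2 the exact permutation p was 0.0671 for Mrps22, 0.00866 for Mrps31, 0.377 for Mrpl38 and 0.0195 for Mrpl55. Within run 1 it was 0.0707, 0.217, 0.00253 and 0.0808 in the same order, where the smallest possible p is 0.00126 in run 1 and 0.0022 in run 2.

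**Figure D3:**
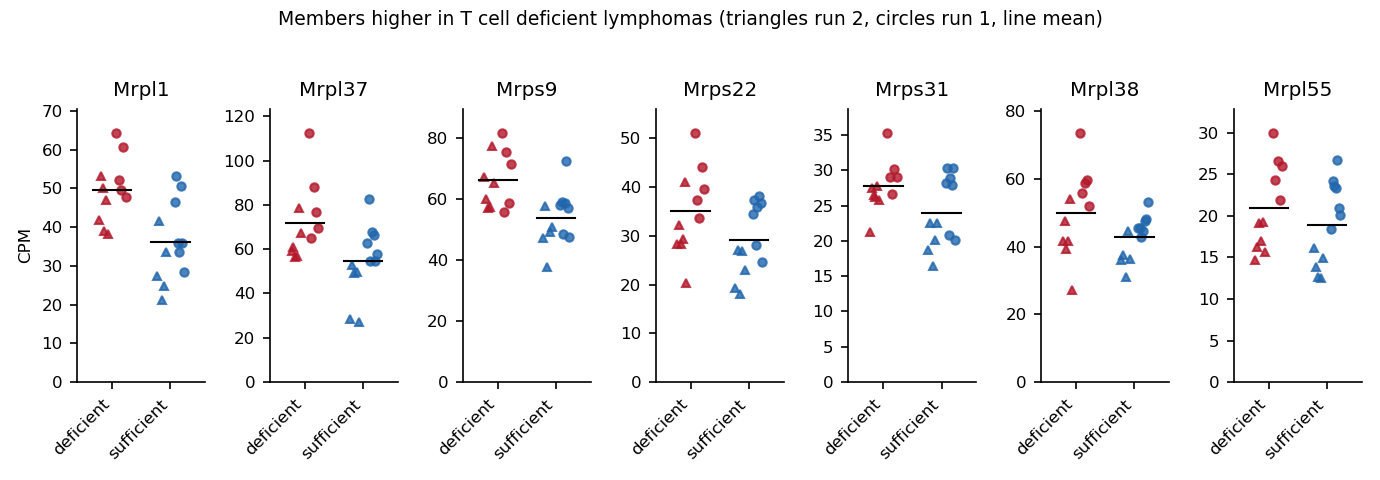
CPM (vertical axes, each from 0) of the 7 members called higher, with 1 point a library, T cell deficient (red) left of T cell sufficient (blue); triangles are run 2, circles run 1, and lines are group means. In Mrpl1, Mrpl37 and Mrps9 every T cell deficient library lies above the median of the T cell sufficient ones, and in Mrpl38 and Mrpl55 the groups overlap broadly.

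How firm each call was differed. With each of the 23 libraries left out in turn, Mrpl1, Mrpl37 and Mrps9 stayed called every time, with edgeR adjusted p up to 0.0135, 0.0206 and 0.0275. Mrps22, Mrps31, Mrpl38 and Mrpl55 missed the threshold in 11, 11, 15 and 15 of these fits. The number of members called was 3 without T cell deficient replicate 2 or 4 or T cell sufficient replicate 10, and 4 without T cell deficient replicate 5 or 7 or T cell sufficient replicate 3. In these 6 fits 7.50% to 9.76% of all genes were called higher and 9.70% to 11.1% lower. It was 12, all higher, without T cell deficient replicate 6, where 11.3% of all genes were higher and 12.2% lower. Without T cell sufficient replicate 5 it was 11, with 8 higher and 3 lower, where 12.2% of all genes were higher and 13.2% lower. Without the 3 libraries with Xist and Y-linked transcripts, a setting chosen after seeing the data, 3 members were called, all higher, where 5.91% of all genes were called higher and 7.40% lower. Without a term for run 2 were called, both higher, where 7.13% were higher and 8.77% lower.

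No member fell, and 3 of those with negative values are given here without a call. Mrps7 had the most negative log2 fold change, -0.39 (SE 0.167, edgeR adjusted p = 0.0927), with 65.9, 122 and 223 CPM in T cell deficient lymphomas, against 79.5, 176 and 276 CPM in T cell sufficient lymphomas. Mrpl43, chosen after its values were seen, had 49.6, 69.0 and 91.7 CPM in T cell deficient lymphomas, against 57.4, 84.4 and 159 CPM in T cell sufficient lymphomas (-0.28, SE 0.102, adjusted p = 0.0553). Mrps23, also chosen after its values were seen, was the only member whose T cell deficient libraries all lay below in run 2 (4.12% of all genes did), with 42.3 to 50.3 CPM, against 53.3 to 64.2 CPM in T cell sufficient libraries. In run 1 its ranges overlapped, at 64.5 to 89.1 and 70.0 to 92.4 CPM. On the other side Mrps6, also chosen after its values were seen, had a log2 fold change of 0.48 (SE 0.179) as large as that of Mrpl37 but a wider spread, and missed the threshold (adjusted p = 0.0571). No member's groups were without overlap over both runs, where this held for 0.163% of all genes, nor in run 1, where it held for 1.81%.

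**Figure D4:**
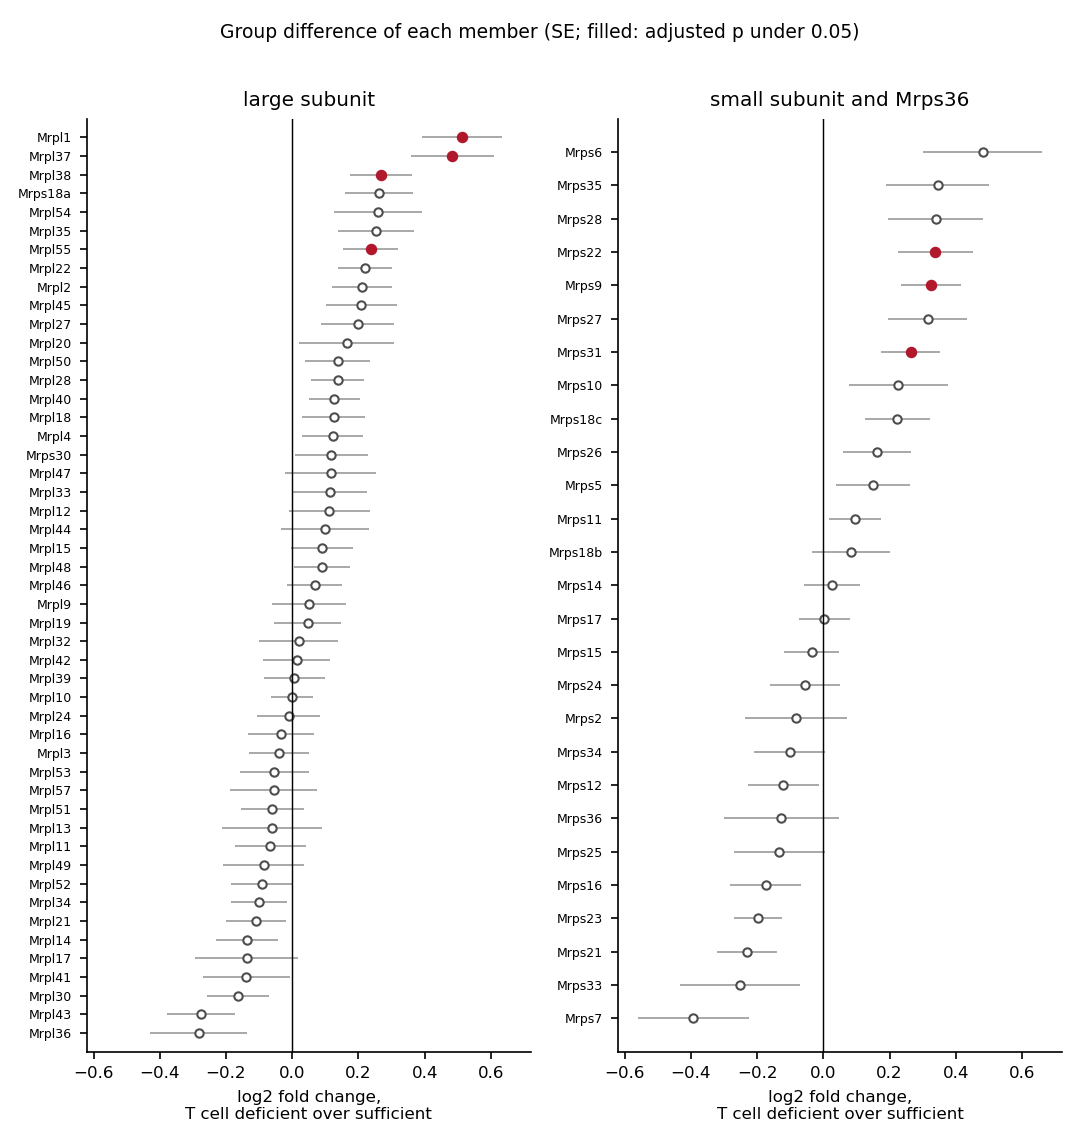
Log2 fold change, T cell deficient over sufficient, with its SE (horizontal axis) for each member, ordered by size within each subunit; filled red points passed an edgeR adjusted p under 0.05. The 7 called members are all positive, Mrpl1 at 0.51 is the largest, and Mrps7 at -0.39 is the most negative and not called.

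The group difference was also fitted in each run alone. In run 2, edgeR called Mrpl1 higher (adjusted p under 0.05) and Mrps23 lower, where 5.69% of genes were called higher and 6.61% lower. In run 1 no member was called and no gene of the table was. There 4 members were higher and none lower at an unadjusted p under 0.05, where 838 of 10993 genes were higher and 965 lower. The interaction of group and run was called for no member and no gene by edgeR, nor with limma-voom or DESeq2 size factors for any member. At an unadjusted p under 0.05, the edgeR interaction had 1 member, lower, where 374 of the 11020 genes were higher and 349 lower. The median interaction over the members was 0.01. The small subunit had a median interaction of -0.14 and the large subunit of 0.03, on the log2 scale.

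The separation between runs was far larger than that between groups. In run 2, 69 of the 76 members were lower than in run 1 and none higher (edgeR, adjusted p under 0.05, with a term for group), where 17.7% of all genes were lower and 18.6% higher. The median log2 fold change, run 2 over run 1, was -0.61 over the members and 0.02 over all genes, and it was negative for every member. Summed levels were 3137 ± 303 CPM in run 2 and 4641 ± 435 CPM in run 1 (SD, n = 11 and 12), which is 32.4% lower in run 2, and the runs did not overlap. For 21 members the libraries of the 2 runs did not overlap at all, each time with run 2 below, where this held for 2.11% of all genes. By subunit 47 of 49 large and 21 of 26 small subunit members were lower. T cell sufficient lymphoma 1 was coded as run 1, though its column may also hold its repeat library of run 2. Every other lymphoma was in 1 run, so differences between lymphomas and between runs cannot be told apart.

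Among the 6 members with the smallest p for run, Mrpl14 (uL14m), at the face where the subunits meet, had 10.1, 14.4 and 18.3 CPM in run 2, against 24.7, 30.3 and 33.3 CPM in run 1 (log2 fold change -1.06, SE 0.0951, edgeR adjusted p = 1.82e-08). Mrps21 (bS21m) had 29.1, 31.9 and 37.2 CPM in run 2, against 52.9, 64.8 and 105 CPM in run 1 (-1.03, adjusted p = 1.92e-08). Mrpl33 (bL33m) had 21.1, 29.0 and 34.2 CPM in run 2, against 43.4, 58.8 and 79.7 CPM in run 1 (-1.11, adjusted p = 1.45e-07). The runs did not overlap in any of the 3. Mrps14 (-0.80), Mrpl34 (-0.76) and Mrpl52 (-0.80) were the other three. Mrps33 had the largest difference, -1.24 (SE 0.185, adjusted p = 1.59e-05), with 2.54 to 5.13 CPM in run 2 and 6.03 to 16.2 CPM in run 1. The 7 members that missed the threshold were Mrps9, Mrps10, Mrps5, Mrpl44, Mrps18b, Mrps2 and Mrpl24, with log2 fold changes from -0.29 (Mrps10) to -0.17 (Mrps2). Of these, Mrps9 is the one also called for group.

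Transcript length moved with the run difference across the whole table, and the members are short. Their transcripts had a median of 1302 bases (418 to 7300), against 2986 bases over all tested genes with a model. Ordered by length into 10 bins of like size, all genes had a median log2 fold change, run 2 over run 1, of -0.45 in the shortest bin (up to 1249 bases) and 0.37 in the longest. The 36 members in the shortest bin had a median of -0.65. Members at or under the median member length had a median of -0.65 and those over it -0.47. With offsets for transcript length, fitted after seeing the data, 56 members were lower and none higher (edgeR, adjusted p under 0.05), where 19.2% of all genes were lower and 12.3% higher, and the medians were -0.40 over the members and -0.07 over all genes. Under these offsets Mrpl52, the shortest member, lost its call (-0.15, adjusted p = 0.196). In each of the 10 bins the members' median lay below that of all genes. Some bins held few members: counted from the shortest, bins 5, 7 and 9 held 2 each and bin 10 held 1. The part of length in the run difference of the members, beyond these values, was not tested.

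**Figure D5:**
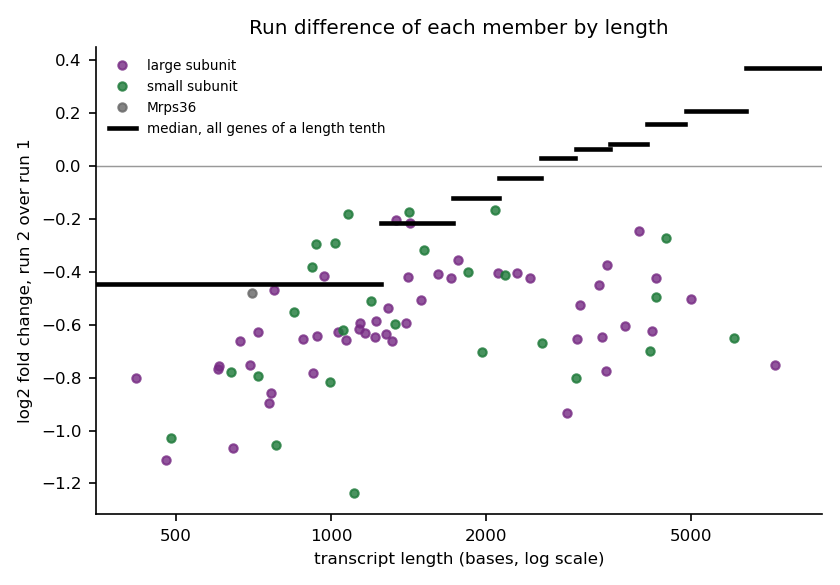
Log2 fold change, run 2 over run 1 (vertical axis), against transcript length in bases (horizontal, log scale) for large subunit (purple), small subunit (green) and Mrps36 (grey) members; black bars give the median over all genes in each of 10 bins of length, with the outer bars clipped at the axis limits. All members lie below 0, and in the shortest bin the members' median is -0.65 beside -0.45 for all genes.

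The same offsets moved the comparison of the groups. With them 17 members were higher and none lower in T cell deficient lymphomas (edgeR, adjusted p under 0.05), where 11.5% of all genes were higher and 10.6% lower, and the medians were 0.10 over the members and 0.01 over all genes. All 7 members called without offsets were among the 17, with Mrps27, Mrps18a, Mrpl22, Mrpl2, Mrpl54, Mrps18c, Mrps6, Mrps28, Mrpl27 and Mrpl40 added. With library totals in place of TMM scaling 14 were called, all higher, where 14.6% of all genes were higher and 9.32% lower. With offsets for length and GC 18 were called, all higher, where 11.2% were higher and 10.3% lower. Whether the share of members that rose lies near or above the background therefore depended on the scaling.

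Single libraries moved many members at once. In run 2, T cell deficient lymphoma 6 had the lowest level of its run in 36 members, and T cell deficient lymphoma 5 the highest in 26. Their median deviations from the run mean over the members were -0.30 and 0.20 on the log2 scale. In run 1, T cell deficient lymphoma 7 was highest in 34 members, with a median deviation of 0.31. T cell sufficient lymphoma 10 was lowest in 19 members of run 2, and T cell sufficient lymphomas 7 and 3 were lowest in 16 and 15 members of run 1. Thus both extremes of run 2 came from the same group.

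Beside Ict1, which was lower in run 2 (log2 fold change -0.76, edgeR adjusted p = 0.000201), 5 listed subunits of the mitochondrial ribosome have no Mrp symbol in the table. Dap3, a GTP-binding protein of the small subunit, had 98.6 ± 9.78 CPM in T cell deficient and 96.3 ± 23.2 CPM in T cell sufficient lymphomas. Chchd1, also of the small subunit, had 39.2 ± 15.6 CPM and 44.2 ± 15.8 CPM in the same order. None of the 5 was called for group by edgeR, none had an unadjusted p under 0.05, and 4 of the 5 were lower in run 2. Ptcd3 was the one not called for run.

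Genes that work with the mitochondrial ribosome were counted in the fit over all genes, where 10.6% rose and 11.7% fell, and the counts in these short lists are to be read against those shares. Of 27 assembly factors 2 rose and 2 fell: Gtpbp10 and Wbscr16 rose, and Mtg2 and Ngrn fell. Of 16 translation factors 2 rose, Guf1 and Tsfm, the elongation factor that recharges Tufm, which had 46.6 ± 11.4 CPM in T cell deficient and 37.0 ± 7.30 CPM in the T cell sufficient ones (log2 fold change 0.38, edgeR adjusted p = 0.0076). Of 20 mitochondrial aminoacyl tRNA synthetases 3 rose, Fars2, Iars2 and Rars2. Fars2, which charges the phenylalanine tRNA, had 33.8 ± 5.48 CPM in T cell deficient and 26.2 ± 5.31 CPM in T cell sufficient lymphomas (0.41, adjusted p = 0.0048). Among 14 genes of mitochondrial DNA maintenance and transcription 1 rose, Polg, the DNA polymerase of the organelle (0.66, adjusted p = 0.00144). Of 24 import genes with a row 3 rose, Pmpcb, Tomm40 and Timm50, the receptor of the inner membrane translocase (0.39, adjusted p = 0.00549). None of the translation factors, synthetases, maintenance genes or import genes fell. The SDs above are over n = 11 and 12 libraries.

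The products of the mitochondrial ribosome work in complexes with many subunits made from nuclear genes. Over all genes 10.6% rose and 11.7% fell in T cell deficient lymphomas, and with length offsets 11.5% rose and 10.6% fell. Of 72 nuclear subunits of the respiratory chain and ATP synthase none rose and 7 fell, with a median log2 fold change of -0.05. With length offsets 6 of these subunits rose and 1 fell. Of 77 cytosolic ribosomal protein genes none rose and 20 fell (median -0.20), and with length offsets 2 rose and 10 fell. For the run, 67 of the 72 were lower and 1 higher in run 2, and of the 77 cytosolic ribosomal protein genes 55 were lower and 7 higher. Of the 76 mitoribosomal genes 69 were lower and none higher, and of all genes 17.7% were lower and 18.6% higher. Of 23 cell division genes 19 rose and none fell in T cell deficient lymphomas, with a median of 0.59. Mki67, a marker of cycling cells, had 1625 ± 775 CPM in T cell deficient and 701 ± 365 CPM in T cell sufficient lymphomas (SD, n = 11 and 12). The part of cell division in the 7 mitoribosomal calls was not tested.

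Markers of cell types were counted in the same fit, where 10.6% of all genes rose and 11.7% fell. The counts in these short lists are to be read against those shares. The 12 monocyte and macrophage markers summed to 130 to 634 CPM in T cell deficient and 194 to 2389 CPM in T cell sufficient libraries, and 2 of them fell. Of the 10 B cell markers 5 fell, and of 7 T cell markers with a row 1 did. Of 6 plasma cell markers with a row 1 fell, and none of 6 erythroid and 3 neutrophil markers tested was called. Summed levels were 205 to 881 CPM in T cell deficient and 236 to 838 CPM in T cell sufficient libraries for T cell markers and 1984 to 6002 CPM and 881 to 9914 CPM for plasma cell markers. They were 4.83 to 54.5 CPM in T cell deficient and 2.94 to 85.1 CPM in T cell sufficient libraries for erythroid and 1.44 to 171 CPM and 0.132 to 83.6 CPM for neutrophil markers. No marker of these lists rose, and none was at 0 in every library. Their part in the differences of the mitoribosomal genes was not tested.

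Of 10 regulators of mitochondrial biogenesis tested, 2 rose and 1 fell, where 10.6% of all genes rose and 11.7% fell. Gabpa, the DNA-binding subunit of GABP, had 143 to 174 CPM in T cell deficient and 122 to 160 CPM in T cell sufficient lymphomas, with overlapping ranges (log2 fold change 0.22, SE 0.0577, edgeR adjusted p = 0.0105). Nrf1 had 79.8 ± 7.45 CPM in T cell deficient and 70.7 ± 7.56 CPM in T cell sufficient lymphomas (0.19, adjusted p = 0.0381). Esrra, a nuclear receptor that acts on respiratory genes, fell, with a log2 difference of -0.36 and an edgeR adjusted p of 0.0482, and missed the threshold in 16 of the 23 fits with a library left out. Myc had 234 ± 53.1 CPM in T cell deficient and 233 ± 44.4 CPM in T cell sufficient lymphomas. Since GABP binds ETS sites and NRF1 a site of its own, the letters of the members' promoters were searched.

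RefSeq promoter sequences (GRCm38.p6) matched 67 of the 76 members, and the 250 bases before the start were searched on both strands for 3 motifs. CCGGAAG, the ETS core, was present in 15 of the 67 windows (22.4%), against 15.4% of 8466 tested genes with a promoter. GCATGCG, part of the NRF1 site, was in 8 of 67 (11.9%), against 6.00%, and the E-box CACGTG, a site of Myc, was in 5 of 67 (7.46%), against 8.67%. In 42 of the 67 windows (62.7%) none of the motifs was found, against 72.7% of the tested genes. A GCATGCG match can overlap its own reverse complement: the window of Mrpl32 held 5 such matches, 2 pairs of which overlap. Among the called members with a promoter sequence, only Mrps22 held CCGGAAG and none held GCATGCG. Mrpl1, Mrps9, Mrps31 and Mrpl55 held none of the 3 motifs, and Mrpl37 held only an E-box. The promoters of Mrps9 and Mrpl37 are shown as called members that kept their call with any library left out. Mrpl1 kept its call as well and is not shown. The promoter of Mrps22 was chosen for its CCGGAAG match. The motif is in capitals, and letters are read on the strand of the gene. Stretches that overlap an annotated exon of any gene are left out. Mrps9 (chr1:42850983-42851232, plus strand) and Mrpl37 (chr4:107066869-107066987, minus strand) hold none of the 3 motifs in the letters printed; an E-box of Mrpl37, 162 to 157 bases before its start, lies outside them. Mrps22 (chr9:98601680-98601929, minus strand) holds CCGGAAG between 11 and 5 bases before its start.
Mrps9: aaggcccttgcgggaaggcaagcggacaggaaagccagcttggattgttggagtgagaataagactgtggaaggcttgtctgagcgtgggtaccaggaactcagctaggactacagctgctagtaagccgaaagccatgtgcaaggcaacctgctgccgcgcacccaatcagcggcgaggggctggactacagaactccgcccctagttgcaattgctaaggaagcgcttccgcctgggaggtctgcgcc
Mrpl37: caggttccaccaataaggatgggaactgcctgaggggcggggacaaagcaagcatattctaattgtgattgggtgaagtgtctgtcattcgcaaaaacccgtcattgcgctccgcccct
Mrps22: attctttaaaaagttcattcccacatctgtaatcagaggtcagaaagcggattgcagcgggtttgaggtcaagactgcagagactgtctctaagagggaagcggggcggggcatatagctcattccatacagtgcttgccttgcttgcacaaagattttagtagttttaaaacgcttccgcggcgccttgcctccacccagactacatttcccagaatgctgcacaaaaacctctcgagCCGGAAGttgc
A match is a description of letters and is no bound site.

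Many members share a start region with a neighbour. In 33 of the 76 (43.4%) a coding gene on the opposite strand starts within 1000 bases, against 1806 of 10312 coding genes of the table (17.5%), and in 21 members the distance is at most 200 bases. Mrps11 and Mrpl46 are each other's neighbour, 412 bases apart, with log2 fold changes between groups of 0.10 and 0.07 and between runs of -0.62 and -0.62. Of 29 partners tested, 4 rose and 2 fell in T cell deficient lymphomas, where 10.6% of all genes rose and 11.7% fell. Mrps18c lies 29 bases from Helq, a DNA helicase gene, which rose by 1.36 on the log2 scale (edgeR adjusted p = 0.00019) while Mrps18c had 0.22 (adjusted p = 0.105). Mrpl57 lies 49 bases from Ska3, a gene of the spindle attachment complex that rose by 0.82 (adjusted p = 0.00852), and had -0.06. By run, 10 of the 29 partners were higher and 7 lower in run 2 (18.6% and 17.7% of all genes), while the members beside them were lower or not called. The 29 partners, and the 7 lower ones, include Mrps11 and Mrpl46, which are members themselves. Whether counting used strand is not stated, so reads of genes that overlap on opposite strands cannot be told apart.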

How the data were processed

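The authors deposited raw counts per gene and, beside them, CPM (counts per 1000000 of the library total), with a table of log2 fold changes, p-values and adjusted p-values of their own; the submitters' processing notes name limma and, as builds, GRCm38 and mm10. An aligner, a counter, an annotation and strandedness: not given in the sources used here. The log2 values, p-values and adjusted p-values that the authors deposited were used only where their table is named. Per the labels' protocols RNA came from Qiagen columns and libraries from a TruSeq RNA kit. The deposited table lists only genes over 1 CPM in at least 7 libraries. For 1 library the column was matched by its number alone, since the suffix differs. T cell sufficient lymphoma 1 has the most counts, and its column may hold 1 or both of its libraries.

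Counts were tested with edgeR 4.0.16 in R 4.3.3: filterByExpr (11020 of 11140 genes kept), TMM, robust quasi-likelihood fit with terms for run and group, Benjamini-Hochberg over all genes, called at an adjusted p under 0.05. The SE is the absolute log2 fold change over the square root of F. Printed CPM use TMM factors. limma 3.58.1 (voom) and DESeq2 1.42.0 were alternatives. Within runs, exact permutation tests of the called members used log2(CPM + 0.5) and every split. Transcript lengths are of 1 GENCODE M21 transcript per gene, found for 10664 of 11140 symbols and all 76 members. Length offsets are per-library splines with 4 degrees of freedom. Tested on simulated data of 10994 genes for this comparison of groups, the fit recovered 49.3% of genes changed 1.5-fold, 74.6% changed 2-fold and 84.6% changed 4-fold, with 4 false calls. The simulated counts held no difference between runs, were drawn for each gene independently, and had far fewer changed genes than were called here. The 4 false calls therefore do not give the error rate in these data. In 121 pairs of libraries of a group none was identical, and the lowest chi-square per degree of freedom was 31.

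The members, the related lists and the markers were chosen with earlier results of these data known. Named were the called members, the 6 with the smallest p for run, the 3 highest and 3 lowest per kilobase in each subunit, the 3 tightest and 3 widest in spread, members without overlap, a list by role, and up to 4 genes of each related list with the smallest p.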

Additional observations from a re-analysis of the deposited data

How the results depend on the processing

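The number of members called for group moved with most choices (7 in the fit as described). It was 14 with library totals, 13 with DESeq2, 2 without a term for run, 0 in run 1 alone, 2 in run 2 alone, 2 at an adjusted p under 0.01 (4.22% of all genes higher, 5.10% lower) and 17 at one under 0.1 (13 higher, 4 lower, against 15.1% and 15.9% of all genes). Alternatives added after seeing the data gave 3 without the libraries holding Xist and Y-linked transcripts, 17 with length offsets and 18 with length and GC offsets. Leaving out 1 library at a time gave 3 to 12, where 7.50% to 12.2% of all genes were higher and 9.60% to 13.2% lower. Of these, 3 were lower in DESeq2, 1 in run 2 alone and up to 3 in the left-out fits. With no filter it was 7, with limma-voom 5 and with DESeq2 size factors 8 (7 higher, 1 lower). Mrpl1 was called in 34, Mrps9 in 33 and Mrpl37 in 32 of 35 settings, and Mrps31, Mrps22, Mrpl55 and Mrpl38 in 19, 18, 15 and 14. The 69 members lower in run 2 were 67 to 71 with 1 library left out. Genes of the related lists called for group were 62 in all, where 10.6% of all genes were higher and 11.7% lower. Of the 62, 19 were cell division and 20 cytosolic ribosomal protein genes. The count was 22 without a term for run (7.13% of all genes higher, 8.77% lower). It was 0 in run 1 alone, where no gene was called, and 28 in run 2 alone (5.69% and 6.61%). Without the libraries holding Xist and Y-linked transcripts it was 33 (5.91% and 7.40%), and with 1 library left out 47 to 75. The replicate numbers do not pair the samples: of 11 same-numbered pairs 6 had a correlation of deviations over 0.1 (range -0.277 to 0.29), and 3 libraries correlated best with their own number. A replicate block gave 3 members, all higher (8.09% of all genes higher, 8.53% lower), and 36 genes of the related lists. The cause of these shifts was not tested; run 1 and run 2 alone and the left-out fits use fewer libraries. The 23 genes refitted singly kept the sign of their log2 fold change in every setting run. Intervals set by 3 counts cover counting error only.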
